A study of Mus musculus with 8 samples.

Results

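Cluster p5 was the group of hepatocytes that the authors' second round of clustering of the liver epithelial cells numbered 5, and its members were taken from that deposited annotation. It held 57 of the 203 hepatocytes in clusters p1, p3, p4 and p5, of 397 epithelial cells and of 3491 cells in the whole series. The series profiled single cells sorted from healthy adult mouse liver, wild type C57BL6/J or carrying fluorescent reporters, by Smart-seq2, a plate method that reads the whole length of the messenger RNA and counts reads and not molecules. All 57 cells of p5 came from the male epithelial sample, in which hepatocytes had been collected as living cells with no reporter or antibody selection after collagenase digestion of the liver. The deposited annotation did not give the animal, strain, genotype or age of each cell. The comparisons used the male cells of the other hepatocyte clusters, namely 59 cells of p4, 62 of p1 and 23 of p3, and left out 2 female cells of p1. The cells of p5 are common to all 3 comparisons. Cells of 1 sample are not replicates of a condition, so no test was made, and the values describe these cells only.

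Hepatocytes along the axis from the portal to the central vein divide the work of the liver between them. Periportal hepatocytes, which meet oxygen-rich blood first, carry out much of the urea synthesis, gluconeogenesis and amino acid breakdown, while pericentral hepatocytes hold much of the cytochrome P450 system that oxidises drugs and ethanol. The hepatocytes that directly line the central vein receive Wnt signals from its endothelium and express glutamine synthetase (*Glul*), which captures the ammonium that the urea cycle has left over, together with ornithine aminotransferase (*Oat*), which turns ornithine towards glutamate.

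The description turned on *Glul* and *Oat*, which varied together over the cells, and on *Cyp2e1*, which every cell carried. Their upstream sequences are shown to place these genes. *Glul* (ENSMUSG00000026473) lies on the plus strand at chr1:153899944-153909723, and *Oat* (ENSMUSG00000030934) on the minus strand at chr7:132557478-132576398, both in GRCm38. The sequences are from RefSeq (GRCm38.p6), 5′ to 3′ on the strand of the gene, and end just before the first exon of RefSeq or, for *Cyp2e1*, of GENCODE, which starts further upstream. They cover chr1:153899679-153899928 for *Glul*, chr7:132576399-132576648 for *Oat* and chr7:140763569-140763738 for *Cyp2e1*. Capitals mark the letters CCAAT or, on the other strand, ATTGG, the CCAAT box, and CTTTGA or TCAAAG, the core letters bound by the TCF factors of the Wnt pathway.
Glul: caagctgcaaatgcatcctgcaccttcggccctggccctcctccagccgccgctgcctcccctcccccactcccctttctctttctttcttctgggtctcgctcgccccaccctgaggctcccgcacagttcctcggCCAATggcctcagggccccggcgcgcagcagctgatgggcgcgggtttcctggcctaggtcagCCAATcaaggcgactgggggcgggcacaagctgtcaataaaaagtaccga
Oat: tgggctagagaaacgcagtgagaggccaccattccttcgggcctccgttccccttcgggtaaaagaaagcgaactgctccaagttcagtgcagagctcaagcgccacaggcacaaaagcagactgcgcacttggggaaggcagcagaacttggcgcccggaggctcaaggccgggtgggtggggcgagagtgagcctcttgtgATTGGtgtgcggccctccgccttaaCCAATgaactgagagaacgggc
Cyp2e1: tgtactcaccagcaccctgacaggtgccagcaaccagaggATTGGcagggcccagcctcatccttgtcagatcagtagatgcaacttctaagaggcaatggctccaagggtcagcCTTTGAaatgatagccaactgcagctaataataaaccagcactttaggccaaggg
In stretches of 250 bases, the length shown for *Glul* and *Oat*, CCAAT or ATTGG was present in 33.8% of 32851 promoters of the same table and CTTTGA or TCAAAG in 13.8%. In stretches of 170 bases, the length shown for *Cyp2e1*, these shares were 23.3% and 10.3%. In the *Glul* window CCAAT began 113 and 50 bases from the end of the sequence, in the *Oat* window ATTGG began 47 bases and CCAAT 22 bases from its end, and in the *Cyp2e1* window ATTGG began 130 bases and CTTTGA 55 bases from its end. A match is a description of the letters and not of a bound site.

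The depth of p5 lay between 51775 and 394728 counts a cell, with a median of 149112 and a sum of 9574064. The median number of genes with a count was 2917 in p5, against 3909 in p4, 2167.5 in p1 and 3418 in p3. The share of counts from ERCC spike-in RNA had a median of 2.33% in p5, 1.36% in p4, 5.72% in p1 and 1.58% in p3. In p5, 56 of 57 cells stood on 1 plate, which also held 56 of the p4 cells and 19 of the p3 cells but 24 of the 62 p1 cells, which were spread over 10 plates. Every comparison with p1 therefore mixed cluster with plate, and values from the shared plate alone are given for the main ones. No cell identifier occurred more than once in the series. Of the markers of other cell types, those of Kupffer cells and of endothelium had their lowest sums in p5. The summed level of 13 Kupffer cell and leukocyte markers was 52.8 counts per 1000000 counts (CPM) in p5, against 93.6 in p4, 680.7 in p1 and 157.6 in p3, and the Kupffer cell genes *Clec4f*, *Vsig4* and *Timd4* had no count in p5. The 12 endothelial markers summed to 30.7 CPM in p5, against 168.7 in p4, 616 in p1 and 154.5 in p3, but the median cell had 19.1 CPM in p5 and 17.3 in p4. The 12 stellate cell and fibroblast markers did not share this order, with 382.9 CPM in p5, 403.3 in p4, 315.3 in p1 and 631.6 in p3, and with the highest median cell, 220.4 CPM, in p5. The 11 cholangiocyte markers summed to 121.5 CPM in p5, 133.4 in p4, 75.7 in p1 and 32.2 in p3, and *Krt19*, *Krt7* and *Epcam* were each below 1 CPM in p5.

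The cells of p5 carried the pericentral markers, and *Cyp2e1* was the one shared by all of them. *Cyp2e1*, which oxidises ethanol and paracetamol, lay at 815 CPM in the lowest cell, 2836 in the median cell and 5972 in the highest. *Oat* was counted in 56 of 57 cells and ran from 0 over a median of 4039 to 14203 CPM. *Glul* was counted in 48 of 57 cells and ran from 0 over a median of 461.1 to 9960 CPM. *Cyp2c54*, a drug-metabolising P450, was counted in 29 of 57 cells, with a median of 4.71 CPM and a highest cell of 1591 CPM. So *Cyp2e1* varied less over the cluster, while *Glul* and *Oat* spanned the range from no count to some of the highest levels among the markers. At the median depth 1 count was worth 6.71 CPM, and a cell without a count may still hold the transcript.

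Over the summed counts *Glul* stood at 2364.5 CPM in p5 (exact 95% Poisson interval 2334 to 2396), 41.4 in p4, 539.2 in p1 and 996.6 in p3, which is a log2 ratio of 5.82 over p4, 2.13 over p1 and 1.25 over p3. All log2 ratios are of summed CPM with 0.5 CPM added. Intervals cover counting error only, since reads of 1 molecule are not independent. The *Glul* cells of p4 did not reach the upper range of p5, for the highest p4 cell had 460.7 CPM, whereas the highest p1 cell had 9438 CPM and the highest p3 cell 6656 CPM. On the shared plate alone the log2 ratio of *Glul* was 5.73 over p4, 0.81 over p1 and 1.04 over p3. Of the 50-base stretches of the *Glul* transcripts 11.9% also occur in another gene, mainly the pseudogene *Glns-ps1*, between which reads could be split.

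*Oat* followed the same order, with 4259 CPM in p5, 120.9 in p4, 1494 in p1 and 2597 in p3. *Cyp2e1* did not, for it stood at 2770 CPM in p5, 200.9 in p4, 2335 in p1 and 4561 in p3. On the shared plate the log2 ratio of p5 over p1 was 0.9992 for *Oat* and turned to -0.53 for *Cyp2e1*. The p3 cells were above p5 in *Cyp2e1* (log2 ratio p5 over p3 of -0.72) and below it in *Glul*. *Cyp2c54* stood at 149.9 CPM in p5, 0.607 in p4, 31.9 in p1 and 517.4 in p3, and its log2 ratio over p1 was 2.08 on the shared plate. Per kilobase of exon, the level in p5 was 1805 CPM for *Oat*, 1284 for *Cyp2e1*, 711.6 for *Glul* and 83.9 for *Cyp2c54*.

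**Figure D1:**
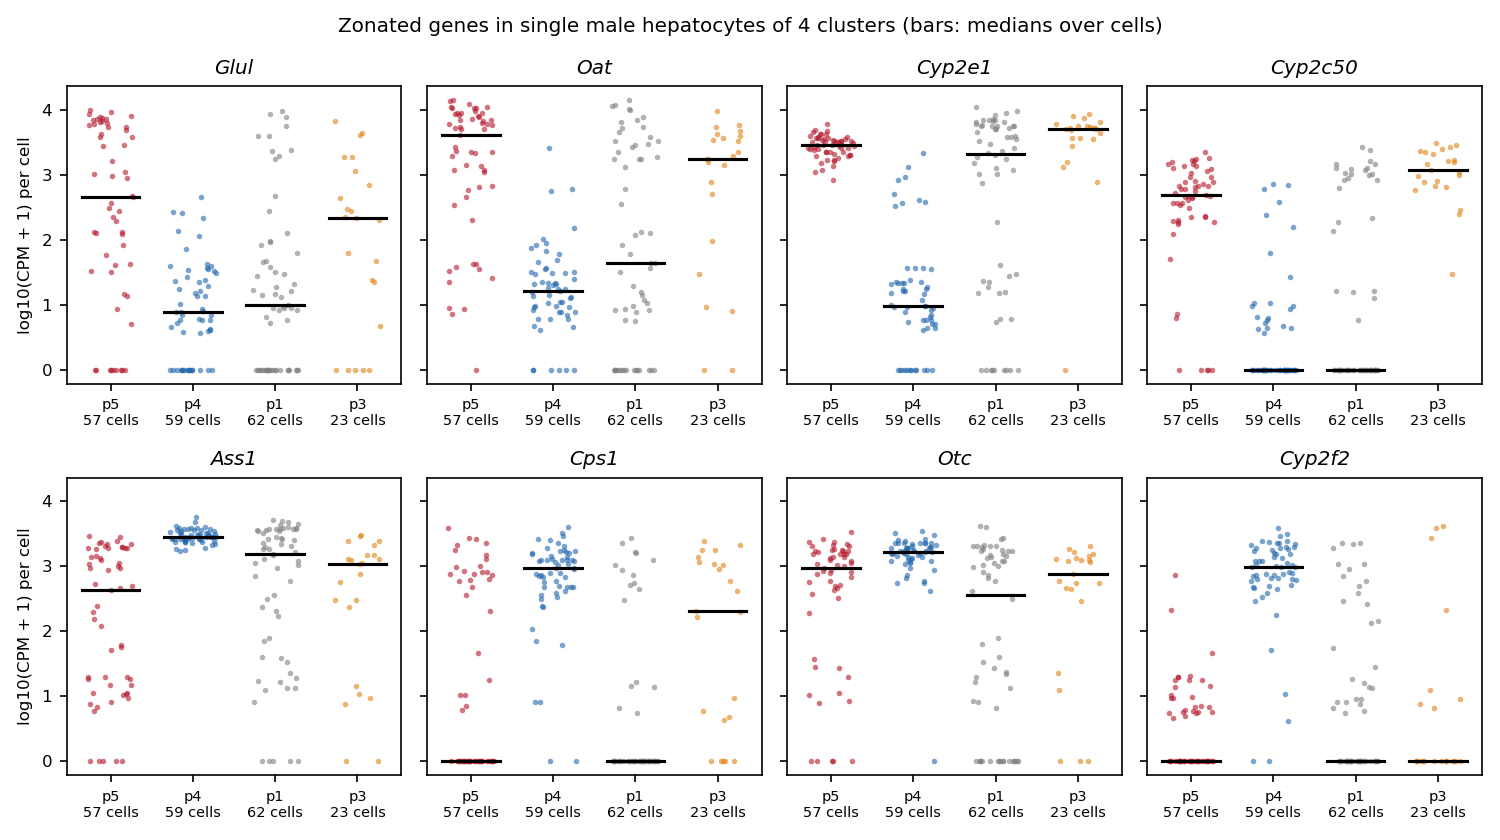
Levels of 8 zonated genes in single male hepatocytes as log10(CPM + 1), 1 point per cell, for clusters p5 (57 cells), p4 (59), p1 (62) and p3 (23), with the median over cells as a bar. In p5, Cyp2e1 lay in a narrow band around its median of 2836 CPM, Glul and Oat spread from 0 to 9960 and 14203 CPM, and Ass1 and Cps1 each had cells near 0 beside cells above 1000 CPM.

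The *Glul* levels of p5 covered the whole scale. No *Glul* count was found in 9 cells, 10 cells lay below 100 CPM, 13 cells from 100 to under 1000 CPM and 25 cells at 1000 CPM or more, of which 16 held at least 5000 CPM. The cells at 1000 CPM or more are called *Glul*-high here, and they made up 43.9% of p5 (exact 95% binomial interval 30.7% to 57.6%). The limit was a round number on a range and not a border between types, with 5 cells between 500 and 2000 CPM, the nearest at 939.5 and 1014 CPM. The same limit found 0 of 59 p4 cells, a count that still leaves room for 5.08% of them, 10 of 62 cells in p1 (16.1%, 8.02% to 27.7%) and 6 of 23 cells in p3 (26.1%, 10.2% to 48.4%). All 25 *Glul*-high cells of p5 stood on the shared plate, and their median depth of 153006 counts was close to the 147904 of the other 32 cells. The median ERCC share was 2.65% in the *Glul*-high cells and 2.15% in the others.

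*Oat* was high in every *Glul*-high cell, and the urea cycle genes *Ass1* and *Cps1* were nearly absent from most of them. *Oat* ran from 2295 over a median of 8516 to 14203 CPM in the 25 *Glul*-high cells, and from 0 over 653.4 to 8400 CPM in the other 32. *Ass1*, argininosuccinate synthase, ran from 0 over a median of 10.2 to 2941 CPM in the *Glul*-high cells and from 7.13 over 1349 to 2817 CPM in the others. The ranges overlapped for both genes, although the medians lay far apart. *Cps1*, the enzyme that brings ammonium into the cycle, was counted in 4 of 25 *Glul*-high cells (exact 95% interval 4.54% to 36.1%) and in 24 of 32 others (56.6% to 88.5%). The log2 ratio of the *Glul*-high over the other cells was 2.31 for *Oat*, -3.44 for *Ass1* and -6.37 for *Cps1*. For *Ass1*, 38.6% of its 50-base stretches also occur in another gene, mainly *Gm5424*.

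Taking 100 CPM of *Ass1* or *Cps1* as the sign of a urea cycle gene, 4 of 25 *Glul*-high cells carried at least 1 of these genes, against 30 of 32 others. These 4 cells lay between 1014 and 5911 CPM of *Glul*, and no p5 cell above that held 100 CPM of *Ass1* or *Cps1*. The cell nearest the limit, at 1014 CPM of *Glul*, held both *Ass1* (153 CPM) and *Cps1* (631.1 CPM). A cell at 5309 CPM of *Glul* held *Ass1* at 2941 CPM, above every p5 cell outside the *Glul*-high set, but no count of *Cps1*. In the remaining pair *Ass1* alone passed as well, at 194.4 CPM beside 2779 CPM of *Glul* and at 246 CPM beside 5911 CPM. Whether a well held more than 1 cell was not tested. The 2 other cells without these genes had no *Glul* count, and 4039 and 1164 CPM of *Oat*.

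**Figure D2:**
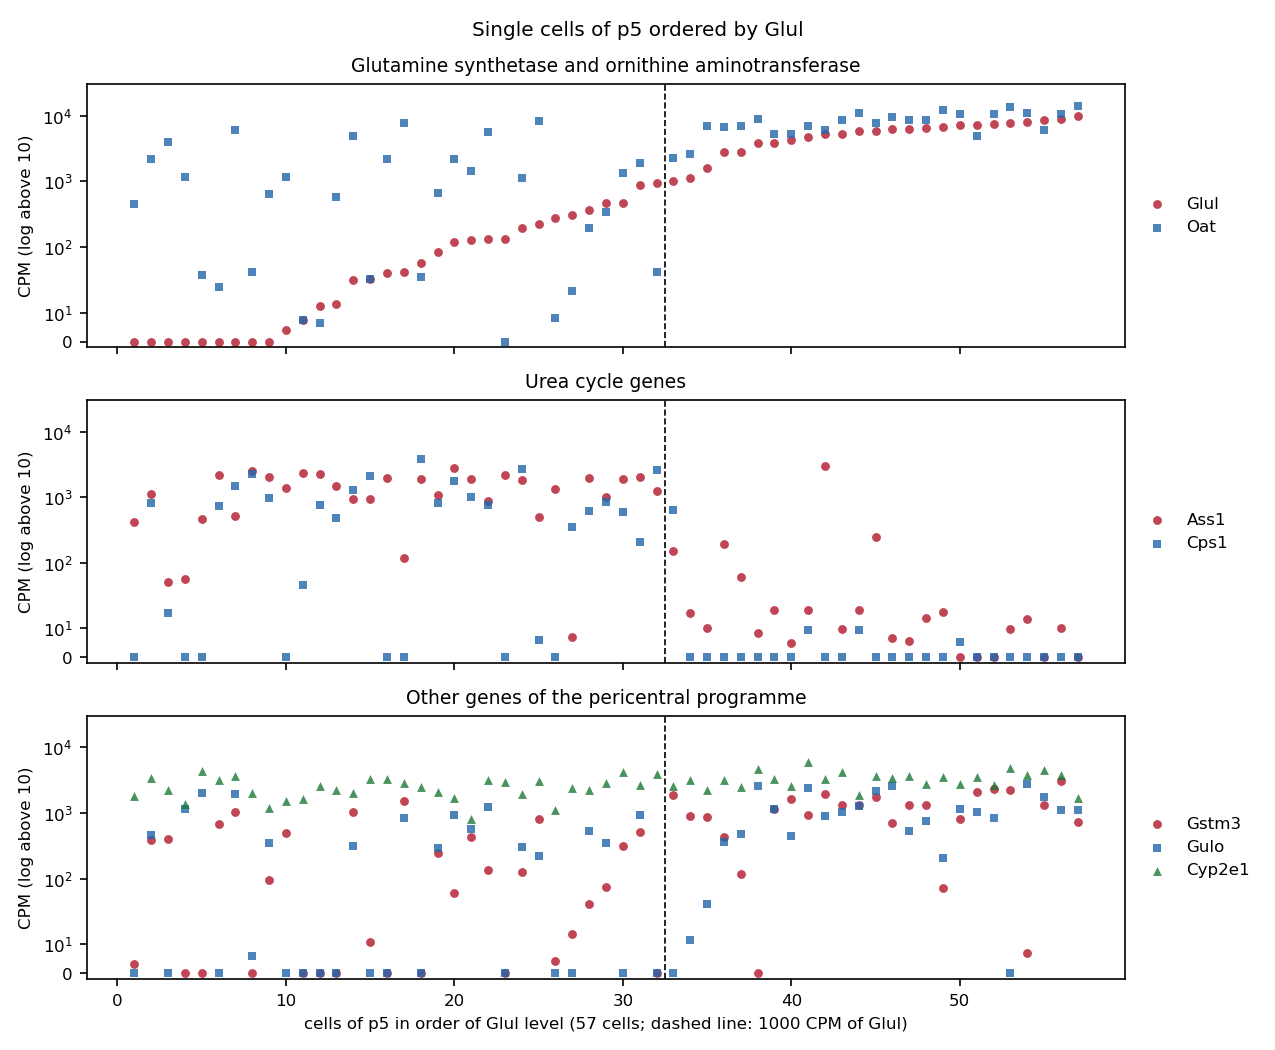
The 57 cells of p5 in order of their Glul level (x axis), with CPM on a scale that is logarithmic above 10 CPM, for Glul and Oat (top), the urea cycle genes Ass1 and Cps1 (middle) and Gstm3, Gulo and Cyp2e1 (bottom). To the right of the dashed line, 1000 CPM of Glul, all 25 cells held at least 2295 CPM of Oat and 21 of them held less than 100 CPM of both urea cycle genes, while Cyp2e1 stayed between 815 and 5972 CPM over all cells.

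Not all urea cycle genes were at least 2-fold lower in the *Glul*-high cells. *Otc*, which joins carbamoyl phosphate to ornithine, was lower, at 584.9 CPM in them and 1462 in the others. It was still counted in 23 of 25 cells. *Asl*, argininosuccinate lyase, stood at 476.9 against 931.3 CPM, a log2 ratio of -0.96 that lay inside 2-fold. *Nags*, whose product activates *Cps1*, went the other way, at 480 against 168.3 CPM. Of 10 urea cycle genes 9 passed the filter of 10 CPM and a count in 30% of cells on either side. Of these 1 was at least 2-fold higher in the *Glul*-high cells and 5 were lower, *Otc* among them. A gene that passed this filter through 1 side alone, as *Cps1* did, is likely to differ, so such counts describe the lists and support nothing further. Over all 3748 genes that passed, 13.4% were at least 2-fold higher in the *Glul*-high cells and 16.2% lower, with a median log2 ratio of -0.07; the median of the urea cycle genes was -1.32. *Glul* itself set the split, and its own ratio is no result.

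*Oat* reached further over the cluster than *Glul*. Besides the 25 *Glul*-high cells, 15 cells held at least 1000 CPM of *Oat* with *Glul* below that limit, and 17 cells held neither. No cell held *Glul* alone. At least 100 CPM of *Ass1* or *Cps1* was present in 13 of the 15 cells with *Oat* only and in all 17 cells with neither. Summed over the cells, *Ass1* stood at 1358 CPM and *Cps1* at 826.3 in the former, close to 1486 and 744.7 CPM in the latter. In *Gstm3*, a glutathione transferase, they lay in between, at 479.9 CPM against 1169 in the *Glul*-high cells and 48.4 in the cells with neither. *Gulo*, the last enzyme of ascorbate synthesis, was graded in the same way, at 1070, 564.7 and 171.7 CPM. *Scd1*, the stearoyl-CoA desaturase, was graded in the opposite way, at 1922, 5161 and 7300 CPM. *Cyp2e1* was less graded, at 3350, 2413 and 2260 CPM. Because *Oat* and *Glul* defined these states, only the other genes describe them.

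Genes of the *Cyp2c* family and single genes of other roles were higher in the *Glul*-high cells. *Gstm3* ran from 0 over a median of 1304 to 3072 CPM in them and from 0 over 67.6 to 1505 CPM in the others. *Lhpp*, a phosphatase, stood at 541.6 against 109.1 CPM and *Gulo* at 1070 against 346.5 CPM. *Cyp1a2*, which oxidises caffeine and aromatic amines, stood at 476.4 against 117.9 CPM, and was counted in 16 of 25 against 12 of 32 cells. Of the *Cyp2c* family 9 of 15 measured genes passed the filter, 5 of them at least 2-fold higher and none lower, with *Cyp2c37* at 458.7 against 91.6 CPM and *Cyp2c50* at 917 against 362.7 CPM. The median log2 ratio of the family was 1.05. The other drug-metabolising P450 genes, *Cyp1a2* among them, were divided, with 3 of 12 that passed higher, 2 lower (*Cyp2f2* and *Cyp3a25*) and 7 inside 2-fold. *Cyp2f2* had a median of 0 over p5, and its highest cells, at 735.7 and 211.7 CPM, lay outside the *Glul*-high set. Of 20 Wnt target genes of pericentral hepatocytes 6 passed, and besides *Glul* and *Oat* these included *Cyp1a2* and *Lect2* (137.8 against 38.6 CPM). *Tbx3*, a transcription factor, stood at 143.8 against 30.7 CPM, but was counted in 8 of 25 *Glul*-high and 4 of 32 other cells and passed only through the *Glul*-high cells, so its difference is no support. *Gstm3* was one of 3 higher genes among the 16 of 21 glutathione transferases that passed, a share near the 13.4% over all genes, with 1 lower and a median of 0.20.

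Within p5, a small set of transporter and Wnt target genes was counted in a few *Glul*-high cells and in none of the others. *Slc1a2*, a glutamate transporter, was counted in 5 of 25 *Glul*-high cells, the Wnt target *Sp5* in 4, the ammonium transporter *Rhbg* in 3 and *Slc13a3*, a dicarboxylate transporter, in 3. Each was at 0 of 32 other cells, which allows a share of up to 9.38%. For *Slc1a2* the interval of the *Glul*-high cells, 6.83% to 40.7%, overlapped that limit, as did those of the other genes. *Axin2*, the feedback inhibitor of Wnt signalling, was counted in 2 *Glul*-high cells and 1 other cell. *Lgr5*, a receptor for R-spondins, was counted in 1 of 57 cells of p5, and *Notum*, a secreted Wnt inhibitor, in 0 of 57. On the shared plate *Slc1a2* was counted in 7 of 19 p3 cells, a set with 5 *Glul*-high cells. Its level there was 200.4 CPM, against 29.5 in p5. *Rhbg* (62.0 against 33.5 CPM), *Slc13a3* (58.2 against 46.85) and *Lgr5* (72.3 against 0.108) were also higher in p3. *Sp5* (13.1 against 34.2 CPM) and *Axin2* (0.344 against 37.2) were lower in p3.

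Some periportal markers were lower in the *Glul*-high cells, as were single genes of lipid synthesis and secretion. Of 26 periportal markers 14 passed, 0 higher and 6 lower by 2-fold and 8 inside it, with a median log2 ratio of -0.79. *Pck1*, the gatekeeper of gluconeogenesis, stood at 48.1 against 430.4 CPM, *Amdhd1*, of histidine breakdown, at 1.45 against 265.8 CPM, and *Pigr*, the receptor for polymeric immunoglobulin, at 1.45 against 210.1 CPM, and the latter pair passed the filter only through the other cells, so their differences are no support. *Scd1* had a median of 327.2 CPM over the *Glul*-high cells and of 5936 over the others, and *Acly*, which supplies cytosolic acetyl-CoA, stood at 270.9 against 784.7 CPM. Most of their list stayed inside 2-fold, for of 20 genes of glycolysis, glycogen and lipogenesis that passed 5 were lower, *Pklr* and *Pfkl* of glycolysis among them, and 1 was higher. Of 9 cholesterol synthesis genes 0 were lower and 1 was higher. *Serpina1e*, an alpha-1-antitrypsin gene, had medians of 67.4 and 1874 CPM. Other secreted proteins hardly differed. *Alb* stood at 4039 against 4441 CPM, *Ttr* at 1112 against 1144, and of 30 plasma protein genes that passed 1 was higher and 3 were lower. *Car3* (6805 against 6974 CPM) and *Cdo1* (3060 against 2933) were also near equal, and none of 13 aldehyde and alcohol enzymes differed by 2-fold. The summed Kupffer cell and leukocyte markers were 92.6 CPM in the *Glul*-high cells and 22.4 in the others, and the summed stress genes 1158 and 1309. The stellate cell and fibroblast markers went the other way, at 276.7 against 463.7 CPM, mainly by *Dcn* (113.4 against 274.8), and the cell cycle genes stood at 203 against 111.1 CPM, with a highest cell of 5221 CPM in the *Glul*-high set. The part of these markers in the differences was not tested.

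The *Glul*-high cells of p1 and p3 showed a like contrast, although they were few. In p1, *Oat* stood at 6332 CPM in 10 *Glul*-high cells and 770.5 in 52 others, and *Cps1* at 0.828 against 363.5 CPM. The medians of *Ass1* over these p1 cells were 3.64 and 1917 CPM. In p3, *Oat* stood at 5046 CPM in 6 *Glul*-high cells and 1689 in 17 others, and *Ass1* at 160.8 against 1367 CPM. *Cps1* in p3 stood at 324.4 against 684.8 CPM, with medians of 1.69 and 589.1 CPM. The *Glul*-high p3 cell at 1122 CPM of *Glul* held 2396 CPM of *Cps1*, more than any other p3 cell. That cell also held 7.19 CPM of *Oat* and 2690.5 CPM of the periportal *Cyp2f2*. *Ass1* or *Cps1* at 100 CPM or more was present in 2 of 10 *Glul*-high against 42 of 52 other cells in p1 and in 1 of 6 against 16 of 17 in p3. *Oat* was less regular than in p5, for it reached 1000 CPM in 8 of 10 *Glul*-high cells of p1 and 5 of 6 of p3. On the shared plate alone the cells with *Ass1* or *Cps1* were 1 of 5 against 12 of 19 in p1, and 0 of 5 against 13 of 14 in p3. *Otc* was the exception, for it was lower in the *Glul*-high cells of p5 and p1 (log2 ratios of -1.32 and -3.40) but level in p3 (-0.05).

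**Figure D3:**
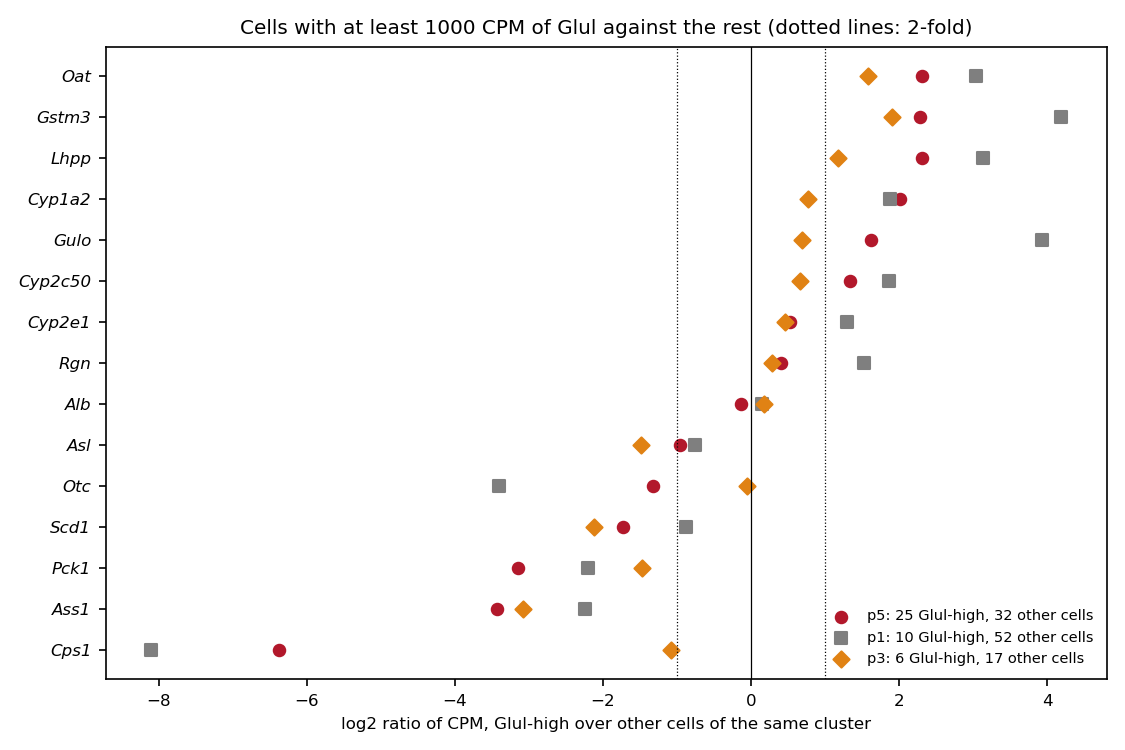
Log2 ratio of CPM of Glul-high cells (at least 1000 CPM of Glul) over the other cells of the same cluster for 15 genes, in p5 (25 against 32 cells), p1 (10 against 52) and p3 (6 against 17), with 2-fold as dotted lines. Oat and Gstm3 lay to the right (2.31 and 2.28 in p5) and Ass1 and Cps1 to the left (-3.44 and -6.37 in p5) in all 3 clusters, while Alb lay near 0 in p5 (-0.14).

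The same pattern appeared without a limit on *Glul*. After each cell had been thinned to 50000 counts, Spearman's rho with *Glul* over the 57 cells was 0.70 for *Oat*, 0.53 for *Gstm3*, 0.52 for *Rgn* and 0.51 for both *Gstm2* and *Tst*, the mitochondrial rhodanese. *Sult1a1*, a phenol sulfotransferase, followed at 0.49 and *Hsdl2* at 0.48. *Cyp2e1*, which had a narrower range, also followed *Glul*, with 0.41. Among the lowest values were those of *Ass1* (-0.65), *Serpina1e* (-0.59), *Cps1* (-0.53) and *Scd1* (-0.49). The median over 2317 genes was -0.04, and 90% of them lay between -0.28 and 0.22. Values of 0.94 for *Mir8114* and *Teddm2* rest on exons that overlap those of *Glul* by 93 and 116 bases, so their counts cannot be told apart from *Glul*. All points come from 1 sample and nearly all from 1 plate. *Oat* with *Ass1* gave -0.69 over the same cells, and *Glul* with *Alb* 0.01. In p4, where *Glul* was low, *Glul* with *Oat* gave 0.06, against 0.52 in p1 and 0.51 in p3.

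Set against p4, the cluster that carried the periportal genes, p5 had more genes that were lower than genes that were higher. Of 4446 genes that passed the filter 328 were at least 2-fold higher in p5 (7.38%) and 686 lower (15.4%), with a median log2 ratio of -0.12. The genes just on either side of the limit were *Map4* (log2 ratio of 1) and *Rtn4ip1* (0.998). *Hal*, the histidine ammonia-lyase, ran from 0 over a median of 0 to 206.2 CPM in p5 and from 0 over 1924 to 3961 CPM in p4. *Sds*, the serine dehydratase, stood at 7.10 against 570.2 CPM, *Gls2*, the liver glutaminase, at 36.6 against 826.7, and *Cyp2f2*, the periportal P450, at 24.9 against 1164. *Cryl1*, *Hsd17b13* and *Aldh1b1* were counted in 4, 7 and 5 of 57 cells of p5. These genes and *Sds* passed the filter only through p4, so their differences are no support. Of 26 periportal markers 24 passed, none higher and 21 lower, with a median of -2.96. *Gm15883* and *Gm10680*, also among the 10 lowest ratios, overlap *Cyp2f2* and *Apoa4* on the other strand, and their reads cannot be told apart from those genes. *Cyp2f2* was counted in 27 of 57 cells of p5, with a median of 0, and in 57 of 59 cells of p4, with a median of 980.9 CPM.

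The urea cycle was lower in p5 than in p4 by less than the periportal markers. *Ass1* ran from 0 over a median of 424.6 to 2941 CPM in p5 and from 1698 over 2823 to 5665 CPM in p4. *Cps1* ran from 0 over 0 to 3814 CPM in p5 and from 0 over 930.4 to 4037 CPM in p4. Of 9 urea cycle genes that passed none was higher and 5 were lower in p5, with a median of -1.03. In the 32 p5 cells outside the *Glul*-high set, *Ass1* at 1429 CPM and *Cps1* at 781 CPM were still below the 2786 and 1042 CPM of p4. Plasma proteins were lower too, 18 of 32 by at least 2-fold, with a median of -1.15, among them the fibrinogen gene *Fga* at 137.5 against 887.2 CPM; *Alb* stood at 4267 against 8237 CPM.

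Genes of the pericentral programme were among those above p4. Besides *Glul*, *Oat* and *Cyp2c54* the 10 largest log2 ratios included *Fitm1*, which helps to form lipid droplets, at 264.4 against 4.25 CPM, and *Aldh3a2*, the fatty aldehyde dehydrogenase, at 2143 against 57.3 CPM. *Aldh3a2* was counted in 53 of 57 cells of p5, with a median of 1956 CPM, and 28 of 59 cells of p4, with a median of 0. *Lhpp* stood at 296 against 8.35 CPM, but in p4 this came from 4 cells, and *Cyp2c29* at 612.4 against 31.0 CPM. *Cyp2c54*, *Fitm1* and *Lhpp* lay under 10 CPM in p4 and passed the filter only through p5, so their differences are no support. Of the *Cyp2c* family 8 of 15 passed and 5 were higher, with none lower and a median of 2.22. The other drug-metabolising P450 genes were divided, 4 higher and 4 lower of 14, since *Cyp2f2*, *Cyp2a12*, *Cyp2d10* and *Cyp2j5* were higher in p4. Stretches that other genes of the family share make up 25.7% of *Cyp2c54* and 37.0% of *Cyp2a5*, so their single values are uncertain.

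Detoxifying partners of these enzymes were higher in p5 as well. Of 13 genes of ascorbate, taurine and related detoxification 12 passed, 7 of them higher and 1 lower in p5, with a median of 1.70. *Rgn*, the lactonase of ascorbate synthesis, was present in every cell of p5, from 1283 over a median of 3685 to 7593 CPM, and had a median of 39.3 CPM in p4. *Csad*, of taurine synthesis, stood at 1864 against 489.2 CPM and within p5 was at 1363 CPM in the *Glul*-high and 2244 in the other cells. *Gulo* stood at 659 against 67.2 CPM. Of 21 glutathione transferases 17 passed, 4 of them higher and 1 lower, with *Gstm3* at 641.6 against 42.1 CPM and *Gstm2* at 298.6 against 18.4. Fatty acid oxidation was little changed in comparison, with 2 of 21 genes higher and a median of 0.48. *Acaa1b*, a peroxisomal thiolase, was one of these, at 3319 against 1458 CPM.

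**Figure D4:**
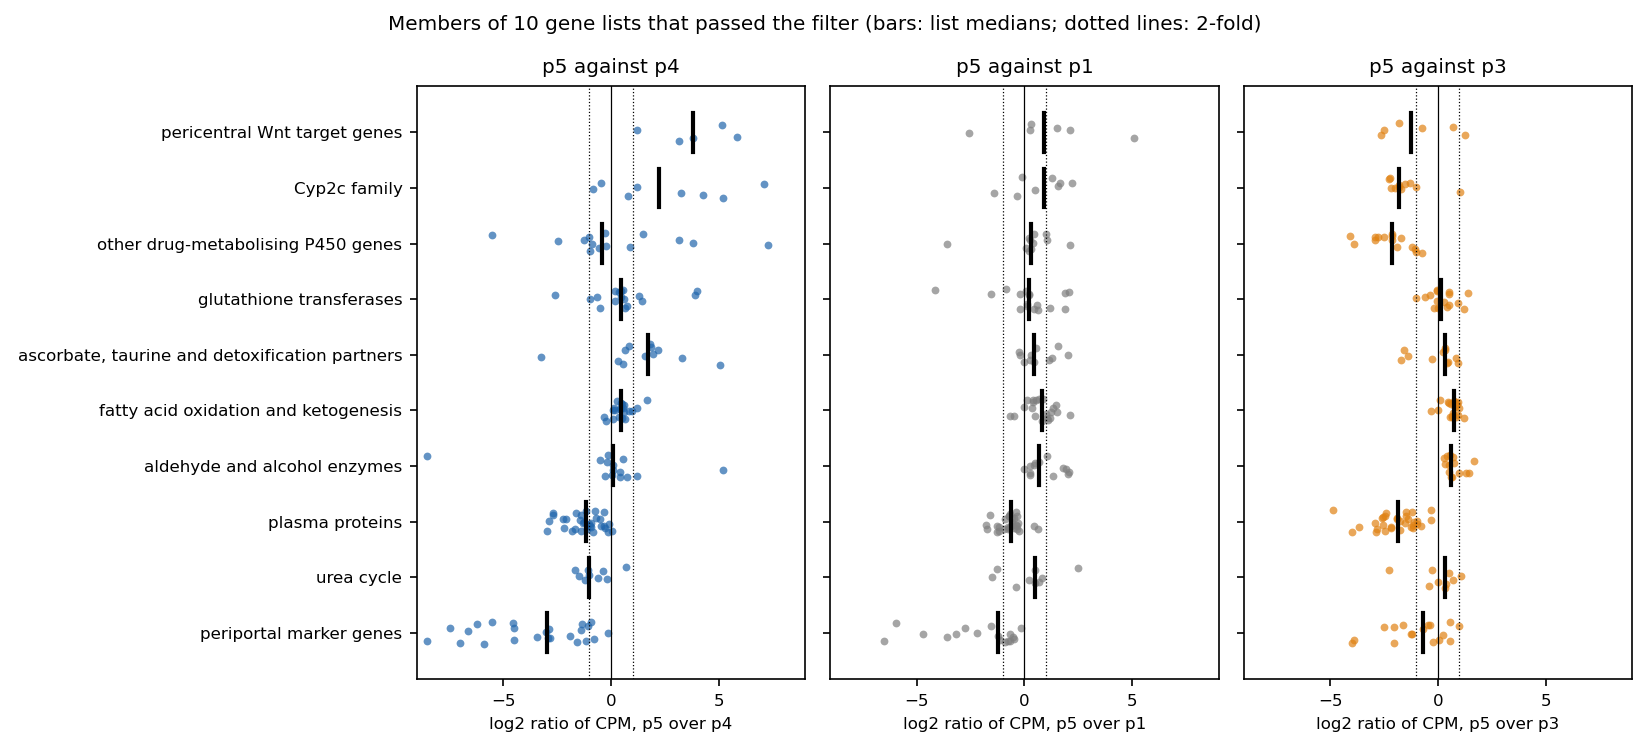
Log2 ratio of CPM of p5 over p4, p1 and p3 for the members of 10 gene lists that passed the filter, 1 point per gene, with list medians as bars and 2-fold as dotted lines. Against p4 the Wnt targets (median 3.78) and the Cyp2c family (2.22) lay to the right and the periportal markers (-2.96) to the left, whereas against p3 the Cyp2c family (-1.78), the other P450 genes (-2.13) and the plasma proteins (-1.84) lay to the left.

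In its summed counts cluster p3 shared the pericentral markers with p5 but held much more of the P450 system. Of 4273 genes 700 were at least 2-fold higher in p5 (16.4%) and 1003 lower (23.5%), with a median log2 ratio of 0.08. Of 11 *Cyp2c* genes that passed 10 were lower in p5 and 1, *Cyp2c39*, was higher. Of 15 other drug-metabolising P450 genes 14 were lower and none higher. The periportal *Cyp2f2*, among these 14, had a median of 0 over the p3 cells of the shared plate. Single p3 cells held 2690.5, 3908 and 4116.5 CPM of it, above the highest p5 cell (735.7 CPM). The p3 cell at 3908 CPM had no count of *Cyp2e1*. *Cyp1a2* ran from 0 over a median of 0 to 1427 CPM in p5 and from 7.19 over 1128 to 3734 CPM in p3. *Cyp2c29* ran from 0 over 503 to 2575 CPM in p5 and from 0 over 2118 to 5925 CPM in p3. *Cyp3a11*, a steroid and drug hydroxylase, stood at 756.3 against 3314 CPM, and *Cyp4a10*, a fatty acid omega-hydroxylase, at 196.7 against 706.8 CPM. Of 6 Wnt target genes that passed only *Glul* was higher, while *Slc1a2*, *Cyp1a2* and *Lect2* were lower. *Cyp2e1* was less apart, with a ratio inside 2-fold.

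Genes of secretion and of transport were lower in p5 than in p3 as well. Of 32 plasma protein genes 27 were lower and none higher, with *Alb* at 4267 against 10274 CPM and the apolipoprotein gene *Apob* at 25.5 against 763.6 CPM. Of 18 glucuronosyl and sulfo transferase genes 12 were lower, but the *Ugt1a* genes among them share exons. Of 12 transporters of bile acids and organic ions 10 were lower, among them the uptake carrier *Slco1b2* at 412.4 against 1474 CPM. Of 14 genes of bile acid synthesis 6 were lower, among them *Cyp7b1* (70.4 against 613.3 CPM) and *Cyp8b1* (171.2 against 678.7), 6 lay inside 2-fold, and *Amacr* and *Hsd17b4* were higher. *Lamp2*, of the lysosomal membrane, was also lower, at 51.1 against 936.1 CPM. The 26 stress genes summed to 1244 CPM in p5 and 2374 in p3, although the median cells were close, at 1126 and 1097 CPM, and the highest p3 cell had 18101 CPM. Of 15 that passed 10 were lower in p5, against 4 of 11 on the shared plate, where 816 of 4076 genes (20%) were lower; their part in the other differences was not tested. On the shared plate 10 of 11 *Cyp2c* genes and 27 of 32 plasma protein genes were still lower in p5.

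**Figure D5:**
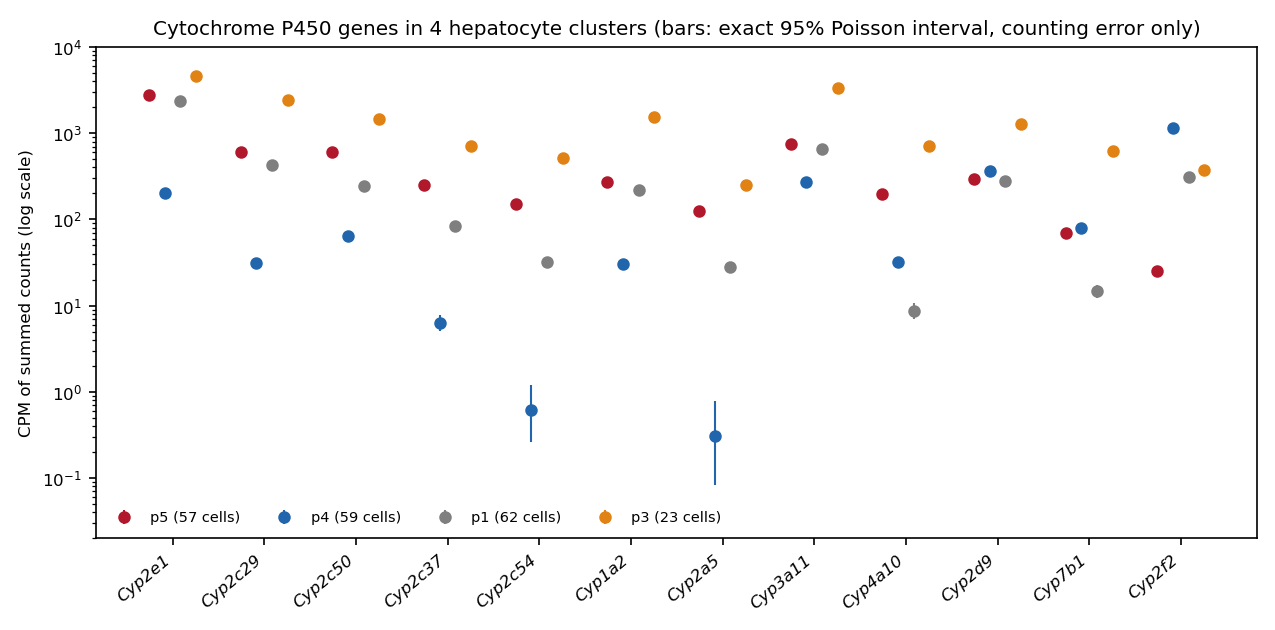
Summed CPM (log scale) of 12 cytochrome P450 genes in clusters p5, p4, p1 and p3, with exact 95% Poisson intervals that cover counting error only. Cyp2c54 stood at 0.607 CPM in p4, 149.9 in p5 and 517.4 in p3, Cyp1a2 at 30.3, 272.8 and 1528, and Cyp2f2 was lowest in p5, at 24.9 CPM.

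Among the genes above p3 were some of nitrogen and carbon metabolism. *Glul* was one of 3 higher genes among 6 of glutamine and ammonium handling; the others were *Slc16a10*, an aromatic amino acid transporter, at 202.7 against 75.9 CPM, and *Gpt2*, an alanine transaminase. *Pcx*, the pyruvate carboxylase, stood at 1084.5 against 174.7 CPM and *Acly* at 562.7 against 107.1 CPM, and 7 of 22 genes of glycolysis, glycogen and lipogenesis were higher, with 3 lower. *Usp5*, a deubiquitinase, stood at 428 against 29.9 CPM, and *Plin3*, a lipid droplet coat protein, at 225.4 against 23.04. Both came from about the same share of p5 cells, 30 and 32 of 57. Urea cycle genes were level between these clusters, with 1 of 9 higher, 1 lower and a median of 0.35; *Ass1* stood at 868.4 and 1041 CPM.

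Cluster p1 held cells with and cells without each of the zonated genes. Of 3229 genes 637 were at least 2-fold higher in p5 (19.7%) and 727 lower (22.5%), with a median of -0.06. In p1, *Cyp2e1* ran from 0 over a median of 2073 to 10914 CPM, *Hal* from 0 over 7.33 to 5480 CPM, and *Ass1* from 0 over 1513 to 5103 CPM. Of 26 periportal markers 17 passed, none higher and 10 lower in p5, with a median of -1.22. *Hal* stood at 14.1 CPM in p5 and 897 in p1, and *Gls2* at 36.6 against 973.8. Of 6 Wnt target genes that passed 3, *Glul*, *Oat* and *Lect2*, were higher and 1, *Ccnd1*, lower. Of 8 *Cyp2c* genes 4 were higher and 1 lower, and of 21 fatty acid oxidation genes 9 were higher and none lower. The 10 largest ratios in favour of p5 included *Prodh*, the proline dehydrogenase that shares a product with *Oat*, at 400.2 against 19.9 CPM, and *Aco1*, the cytosolic aconitase, at 601.6 against 41.7. *Prodh* was also higher in *Glul*-high than in other p5 cells, at 686.4 against 182.5 CPM.

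Several of the p1 differences changed on the shared plate. With the 24 p1 cells of the shared plate, 26.1% of 3483 genes were higher in p5 and 20.2% lower. Among them 1 of 8 *Cyp2c* genes was higher and 3 were lower, *Cyp2e1* turned from a log2 ratio of 0.25 to -0.53, and 4 of 21 fatty acid oxidation genes were higher. *Glul* (0.81) and *Oat* (0.9992) no longer reached 2-fold there, so that 0 of 4 genes of glutamine and ammonium handling were higher, against 2 of 4 over all plates. Of 5 Wnt target genes that passed on this plate, 2 were higher, *Lect2* and *Cyp1a2*. *Pck1* turned from -2.75 to 0.71 and *Ass1* from -1.27 to 0.26, and *Cps1* in p1 stood at 60.8 CPM on this plate against 316.3 CPM over all its cells. *Lhpp* turned from 1.27 to -0.09 and *Cyp8b1* from 1.69 to -0.74. *Hal* (-5.00) and *Gls2* (-3.03) remained lower in p5, and *Prodh* (2.32) and *Aco1* (3.37) higher. The p1 cells also had the highest ERCC and Kupffer cell values of the 4 clusters, 6 of 6 endothelial markers that passed were lower in p5, and 6 of 12 stress genes were lower, or 11 of 14 on the shared plate; the part of these values in the comparison was not tested.

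Against each of p1, p3 and p4, 71 of 3104 genes (2.29%) were at least 2-fold higher in p5. *Glul* was among them, and *Teddm2* and *Mir8114* came with it by their shared exons. *Crat*, the carnitine acetyltransferase, stood at 364.5 CPM in p5 against 144.5 in p4, 66.0 in p1 and 94.3 in p3. *Aars*, the alanyl-tRNA synthetase, stood at 1146.5 CPM in p5 and between 447.8 and 533.9 in the others. *Pctp*, a carrier of phosphatidylcholine, stood at 710.9 CPM against 244 to 347, and *Agxt2*, a mitochondrial aminotransferase, at 492.1 against 172.3 to 241.4. *Fmo5*, a flavin monooxygenase, lay just outside these genes, at 2590 CPM against 1312 in p4, 814.3 in p1 and 1217 in p3. *Crat* was counted in 29 of 57 cells with a median of 3.82 CPM, whereas *Fmo5* was counted in 56 of 57, with a median of 2432 CPM. On the shared plate several of these log2 ratios were inside 2-fold: *Glul* over p1 (0.81), *Aars* over p1 (0.89), and *Pctp* over p3 (0.69). *Crat* and *Agxt2* stayed at 2-fold or more over each there. After each cell had been thinned to 50000 counts, *Glul* and *Crat* were still at 2-fold or more over each cluster, and *Aars*, *Pctp* and *Agxt2* were not.

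Some regulators of the programme were also measured. *Ctnnb1*, the beta-catenin gene, stood at 348.2 CPM in p5, 268.2 in p4, 83.8 in p1 and 168.6 in p3, and was counted in 39 of 57 cells. On the shared plate the log2 ratio of p5 over p1 was 1.48 for *Ctnnb1* and 1.32 for *Hnf4a*. Of 22 Wnt receptor and transducer genes 3 passed against p4, and none of these differed by 2-fold. *Nr1i3*, the receptor CAR that switches on drug metabolism, stood at 294.3 CPM in p5 and 112.4 in p4, and *Rxra*, its partner, at 248.9 and 108.4. *Nr1i3* overlaps *Tomm40l* on the other strand, and the 2 cannot be told apart without strand. *Hnf4a*, a main hepatocyte factor, stood at 385.9 CPM in p5, 300.9 in p4, 141.4 in p1 and 111.3 in p3. None of 16 female-biased liver genes passed the filter in any of the comparisons.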

How the data were processed

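The deposited table holds whole-number counts of reads per gene and cell, which the authors made with bcl2fastq, Bowtie2 and featureCounts from Subread on GRCm38 (mm10), as far as the submitters' processing notes and the study's methods say; versions of these tools, and whether strand was used, are not given in the sources used here. The authors filtered the cells with Seurat and clustered them with pagoda2, and the cluster of each cell was read from their deposited annotation. The 92 ERCC spike-ins were left out, leaving 46517 genes. Counts were summed per cluster over male cells and given as counts per 1000000 counts (CPM), with 0.5 CPM added for log2 ratios. Genes entered a comparison at 10 CPM and a count in 30% of cells of either cluster, and 2-fold was the limit for calling a difference, since 1 sample allows no test. A gene that entered through 1 cluster alone is likely to differ, so its call is no support. Calls use size alone. Exact 95% Poisson and binomial (Clopper-Pearson) intervals cover counting error only, and a share of 0 is given with the limit that 3 counts allow. Named genes are the markers, up to 6 leading members of each list and members that went against it, and the 10 largest ratios per direction (15 over all 3 clusters, 10 for the correlation). Other list members and genes were chosen after their values were seen. The members and lists were chosen with earlier results of these data known; the CCAAT motif was chosen after the sequences were seen. Exon lengths and overlaps are from GENCODE and promoters from RefSeq. The scripts were tested on simulated data. Python 3.11.15, numpy 2.4.6, pandas 2.3.3, scipy 1.17.1 and matplotlib 3.10.9 were used. Some genes are not reported here.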

Additional observations from a re-analysis of the deposited data

How the results depend on the processing

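No paired analysis was possible because the 57 cells came from 1 sample and carry no replicate number. The numbers of genes past 2-fold moved by over 1.5 times with the filter and the limit. With no filter they were 2409 higher and 3412 lower against p4, 4311 and 3325 against p1, 3953 and 3721 against p3, and 1096 higher than each. At 4-fold they were 62 and 201, 237 and 260, 137 and 493, and 2. After thinning each cell to 50000 counts, 182 were higher and 426 lower against p4, 373 higher against p1, 442 higher against p3 and 36 higher than each. The cause was not tested beyond this construction, since no filter adds genes of few counts and thinning removes them. *Glul* in p5 was 2513 CPM after thinning and 2537 as the mean over cells, *Cyp2e1* 2837 and 2882, and *Cyp2c54* 168.1 and 168.4. The number of *Glul*-high cells was 27 at 500 CPM, 22 at 2000 and 29 above the highest p4 cell. Of the ratios of named genes between clusters that were at least 2-fold, 5 changed sign under an alternative, all against p1: on the shared plate *Ass1* (0.261), *Cyp8b1* (-0.738), *Lhpp* (-0.0931), *Pck1* (0.713) and *Tcf7l2* (0.5004), and with p1 limited to the 39 cells whose ERCC share did not exceed that of p5, *Tcf7l2* (1.69). *Cyp2e1* against p1, which lay inside 2-fold, changed sign as well, to -0.53 on the shared plate. The depth limits statements on genes such as *Lgr5* and *Notum*, where 1 count is worth 6.71 CPM in the median cell, and strain, animal and plate cannot be told apart.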
